A study of Mus musculus with 4 samples.

Results

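The genes described here are Ccl22, Ccl17, Fscn1, Cd83, Cd40, Cacnb3, Socs2, Il12b and Lad1, 9 of the 55367 gene rows of the count tables, which were grouped as genes of mature migratory dendritic cells. They were matched by symbol, and they were chosen by their read counts in these same libraries, with the difference between the WT- and KO-labeled libraries already known. That difference is therefore given as a description, with no test. The data were 4 RNA-seq libraries from B16-F10 mouse melanoma tumors, sorted per the labels as CD45.2+CD8+ cells, 2 titled WT and 2 titled KO. The series is about Satb1, a chromatin organizer of T cells, and its design names Satb1 F/F mice with either ThPOK-cre or E8I-cre beside WT mice. ThPOK-cre deletes in the CD4 lineage and E8I-cre in mature CD8+ cells, and the labels do not say which Cre the libraries titled KO carry, nor the age or sex of the mice or whether animals were pooled.

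Dendritic cells take up antigen in a tissue such as a tumor and, once activated, enter a mature state in which they raise costimulatory molecules, remodel their actin skeleton and travel by the receptor CCR7 to the draining lymph node, where they prime T cells. In this state they secrete the chemokines CCL17 and CCL22, which attract T cells through the receptor CCR4, and some make IL-12, the cytokine that drives T helper type 1 and cytotoxic responses. No single gene of this group is restricted to dendritic cells. CD40 and CD83 are also made by B cells and macrophages, SOCS2 by many cytokine-stimulated cells, and ladinin-1, the product of Lad1, by epithelium.

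The libraries held 4017875 to 5382915 counts on genes, and 3 counts corresponded to 0.902, 0.743, 0.571 and 0.524 normalized CPM (counts scaled to a common library total) in WT 1, WT 2, KO 1 and KO 2. Satb1 itself had 7 and 5 counts in the WT-labeled libraries and 131 and 55 in the KO-labeled pair. These counts show no loss of Satb1 in the libraries titled KO. With the Cre not known, whether they go against the labels cannot be told. The T cell markers below were also higher in the KO-labeled pair, and the part of T cells in the Satb1 counts was not tested. Every direction below is that of the libraries as labeled. The genes of the CD8 chains used for the sort, Cd8a and Cd8b1, had 24 and 28 and 23 and 43 counts in the WT-labeled libraries, against 843 and 733 and 723 and 389 in the KO-labeled pair. The T cell gene Cd3e had 26 and 41 counts against 585 and 659, and the summed level of 10 T cell markers was 81.2 and 112 CPM against 2077 and 1158. In all 4 libraries the 7 MHC class II genes and the 13 macrophage or monocyte markers were more abundant than this, from 24118 to 52310 CPM and from 20307 to 42575 CPM. Xist, which only female cells transcribe, split with the labels (435 and 216 against 0 and 3 counts), so that sex and label cannot be told apart. In bulk RNA, a change in the number of cells of a type and a change in RNA per cell cannot be told apart either.

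All 9 genes passed the filter on low counts. Only 4 of them (Ccl22, Ccl17, Cd83 and Cd40) had at least 10 counts in both WT-labeled libraries, while all 9 had at least 10 in both KO-labeled libraries, so 5 genes entered the fit only through the group in which they were high. The mean was higher in the KO-labeled libraries for 8 genes and lower for 1, Cd40. The libraries did not overlap between the groups for 6 of the 8 genes with a higher mean, where 25.3% of the 11837 genes tested had both KO-labeled libraries above both labeled WT, nor for Cd40, where 22.6% of the genes tested lay the other way. In the edgeR fit over all genes 1 of the 9, Lad1, was past the adjusted threshold, against 0.574% of all genes tested. In DESeq2 and in the likelihood ratio test of edgeR 4 of the 9 were past it, the same genes in both (Ccl22, Ccl17, Fscn1 and Lad1), against 2.7% and 4.7% of all genes tested. Nothing is read from these counts, since the genes were picked on the same contrast. Over all genes tested, 13.7% had an unadjusted p under 0.05 in edgeR, the share beside which the counts at that level in the lists below stand.

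**Figure D1:**
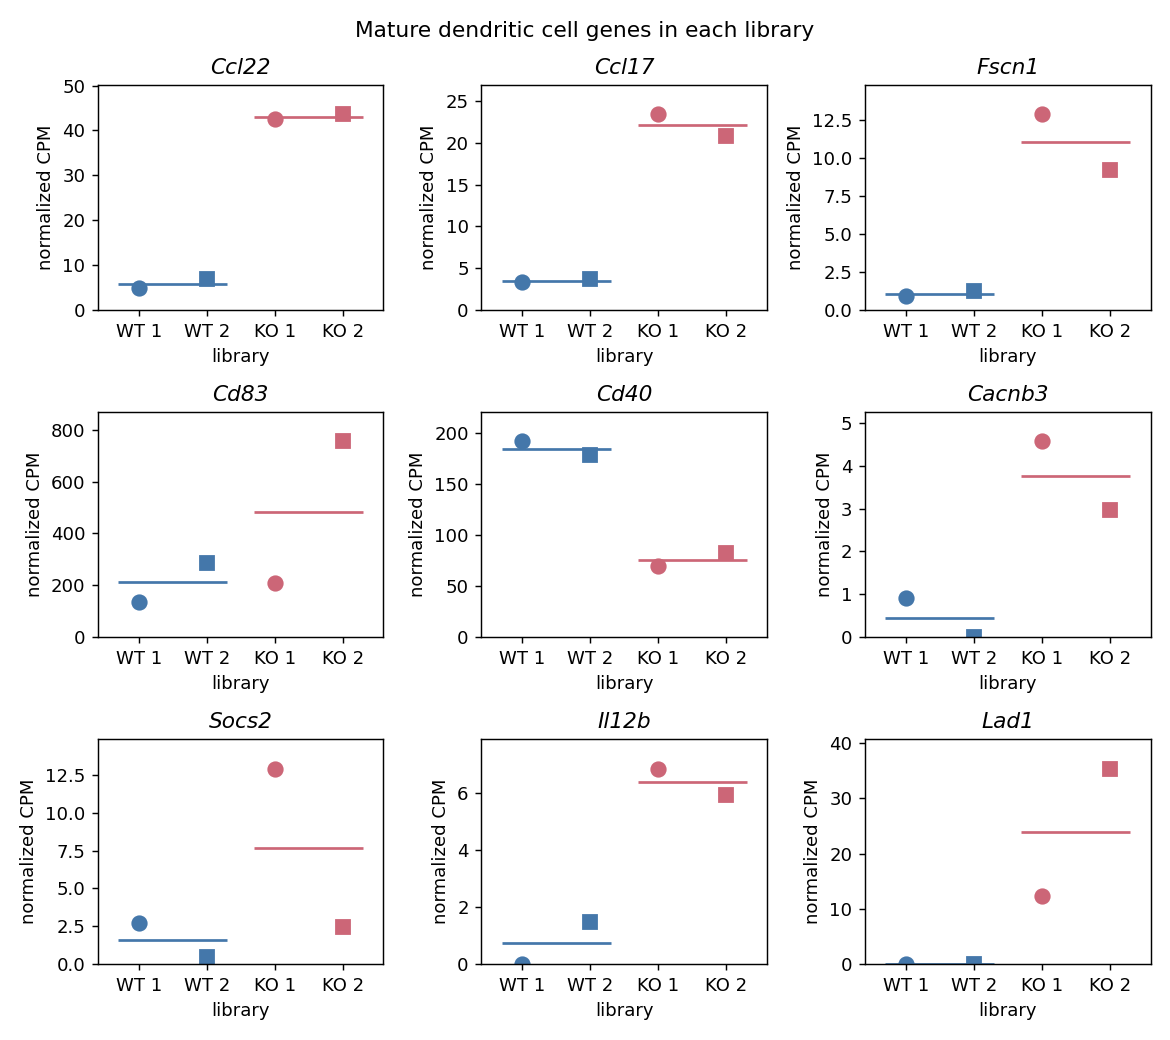
Normalized CPM (vertical axes, linear and starting at 0) of the 9 genes in the 4 libraries (horizontal axes). Blue points are libraries labeled WT, red points the KO-labeled pair, circles replicate 1 and squares replicate 2, and each line is the mean of a group. Ccl22, Ccl17 and Fscn1 were close within each group, Cd40 was lower in the KO-labeled libraries, and Cd83 and Socs2 overlapped between the groups.

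The chemokine genes Ccl22 and Ccl17 were low in the WT-labeled libraries and 7.34-fold and 6.29-fold higher, as a ratio of mean normalized CPM, in the KO-labeled pair. In the order WT 1, WT 2, KO 1, KO 2, Ccl22 had 16, 28, 224 and 250 counts, or 4.81, 6.93, 42.6 and 43.6 CPM. The libraries labeled KO differed from each other by 1.02-fold, and the groups did not overlap. Ccl17 had 11, 15, 123 and 119 counts in the same order, or 3.31, 3.72, 23.4 and 20.8 CPM, again with no overlap. The fitted log2 fold changes were 2.87 with a standard error (SE) of 0.52 for Ccl22 and 2.64 with an SE of 0.59 for Ccl17. Per kilobase of exon, the scale on which genes can be compared, Ccl17 stood above Ccl22 in each library, with means of 6.83 against 2.53 CPM per kilobase in the WT-labeled libraries and 43.0 against 18.5 in the KO-labeled pair.

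The chemokine pair stayed within counting error of one proportion in every library. There were 1.45, 1.87, 1.82 and 2.1 reads on Ccl22 for each read on Ccl17 in WT 1, WT 2, KO 1 and KO 2, with exact 95% intervals from 0.634 to 3.47, 0.964 to 3.76, 1.46 to 2.29 and 1.68 to 2.64. All 4 intervals overlap, and like all intervals here they cover counting error only. The genes are neighbors on the plus strand of chromosome 8 of GRCm38/mm10, Ccl22 (ENSMUSG00000031779.3) from 94745590 to 94751699 and Ccl17 (ENSMUSG00000031780.2) from 94810453 to 94812036, so that their starts lie 64.9 kb apart. The chemokine gene Cx3cl1, from 94772009 to 94782427, lies between them. It had 8, 0, 8 and 7 counts, with overlapping groups, and it was looked up after the values of its neighbors were seen.

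**Figure D2:**
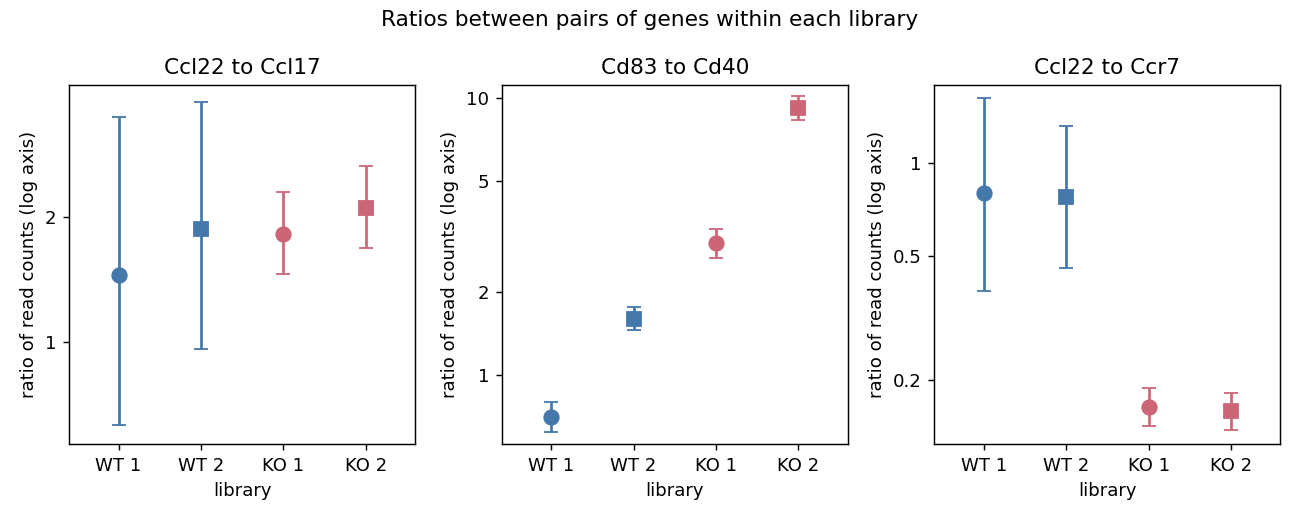
Ratio of read counts between pairs of genes (vertical axes, logarithmic) in each library (horizontal axes), with exact 95% intervals for counting error as bars. The ratio of Ccl22 to Ccl17 lay between 1.45 and 2.1 in all 4 libraries, that of Cd83 to Cd40 went from 0.710 in WT 1 to 9.17 in KO 2, and that of Ccl22 to Ccr7 was 0.8 and 0.778 in the WT-labeled libraries and 0.164 and 0.159 in the KO-labeled pair.

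Fscn1 encodes fascin, which bundles actin filaments into the dendrites and protrusions of migrating mature dendritic cells. It had 3 and 5 counts in the WT-labeled libraries against 68 and 53 in the KO-labeled pair, or 0.902, 1.24, 12.9 and 9.25 CPM. The groups did not overlap, and the fitted log2 fold change was 3.33 (SE 0.80). Fscn1 lies on chromosome 5 from 142960343 to 142973185 on the plus strand (ENSMUSG00000029581.14). Ccl22, Ccl17 and Fscn1 were the 3 genes of the group with the most similar patterns: after each gene was centered on its mean, their log2 CPM over the 4 libraries differed by a root mean square of 0.195 (Ccl22 and Fscn1), 0.204 (Ccl17 and Ccl22) and 0.240 (Ccl17 and Fscn1). The distance from any other of the 9 genes to one of these 3 was at least 0.590, that of Il12b to Ccl22.

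Because these 3 genes had the most similar patterns, the bases in front of their starts are shown, 5′ to 3′, from RefSeq on GRCm38.p6, ending before the first base of both the RefSeq and the GENCODE M21 transcripts. The windows are chr8:94745434-94745589, chr8:94810203-94810452 and chr5:142960105-142960342, all on the plus strand. Capitals mark a match to the STAT motif TTCNNNGAA.
Ccl22: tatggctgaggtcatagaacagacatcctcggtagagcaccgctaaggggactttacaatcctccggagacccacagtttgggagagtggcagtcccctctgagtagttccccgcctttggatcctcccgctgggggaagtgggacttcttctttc
Ccl17: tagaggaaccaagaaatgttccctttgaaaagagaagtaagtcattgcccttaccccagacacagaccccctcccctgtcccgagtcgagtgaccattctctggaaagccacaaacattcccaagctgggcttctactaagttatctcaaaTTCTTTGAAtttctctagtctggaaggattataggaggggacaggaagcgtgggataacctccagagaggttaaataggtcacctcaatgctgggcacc
Fscn1: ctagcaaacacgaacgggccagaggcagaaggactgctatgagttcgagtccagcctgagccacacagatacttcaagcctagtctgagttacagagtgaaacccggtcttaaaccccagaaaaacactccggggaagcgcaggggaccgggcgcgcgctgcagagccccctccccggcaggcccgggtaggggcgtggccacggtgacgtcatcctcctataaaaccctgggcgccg

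RefSeq windows of 250 bases before the start were matched for 6 of the 9 genes (Ccl22, Ccl17, Fscn1, Cacnb3, Il12b and Lad1), with 7 windows since Cacnb3 has more than one. They were searched on both strands for the kappaB consensus, the AP-1 motif TGANTCA, the STAT motif TTCNNNGAA and the interferon response motif GAAANNGAA. The kappaB consensus and the AP-1 motif were in 0 of the 7 windows, against 7.25% and 6.75% of all 32851 windows. The STAT motif was in 1, that of Ccl17, from 99 to 91 bases before its start (chromosome 8, 94810354 to 94810362), where it reads as a match on either strand, against 7.02% of all windows. The interferon response motif was in 1, that of Cacnb3, as GAAACAGAA from 67 to 59 bases before one of its starts, against 7.13%. These are matches of letters in these windows and no more.

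Ccr7, the receptor by which mature dendritic cells and naive T cells enter lymph nodes, is not among the 9 genes but belongs to the same program, and it rose. It had 20 and 36 counts in the WT-labeled libraries against 1363 and 1574 in the KO-labeled pair, a mean of 7.46 ± 2.05 CPM (SD, n = 2) against 267 ± 10.9 (SD, n = 2). The log2 fold change was 5.15, SE 0.52 (edgeR quasi-likelihood test, adjusted p = 0.0172). Against Ccr7 the proportion of Ccl22 was lower in the KO-labeled pair: there were 0.8 and 0.778 reads on Ccl22 for each read on Ccr7 in the WT-labeled libraries (exact 95% intervals 0.388 to 1.62 and 0.457 to 1.31), and 0.164 and 0.159 in the KO-labeled pair (0.142 to 0.189 and 0.138 to 0.182). Naive T cells carry Ccr7 as well, and 9 of the 10 T cell markers were past the threshold and higher in the KO-labeled libraries; their part in the Ccr7 counts was not tested. The ligands of CCR7 that draw these cells, Ccl19 and Ccl21a, had 0 counts in all 4 libraries, and Ccr4, the receptor for CCL17 and CCL22, had 0, 0, 2 and 0.

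The costimulatory genes Cd83 and Cd40 had the highest CPM of the 9 in every library. Cd40, the receptor through which helper T cells license dendritic cells, was lower in the KO-labeled libraries. It had 638 and 721 counts in the WT-labeled libraries and 366 and 472 in the KO-labeled pair, or 192, 179, 69.6 and 82.4 CPM. The groups did not overlap, with a ratio of means of 0.410 and a fitted log2 difference of -1.28 (SE 0.42). Cd83, a surface marker of mature dendritic cells that stabilizes MHC class II and CD86, had 453, 1153, 1094 and 4329 counts, or 136, 286, 208 and 755 CPM. Its groups overlapped, since KO 1 lay between the WT-labeled libraries and only KO 2 stood above them. Within the groups it differed by 2.1-fold between WT 2 and WT 1 and by 3.63-fold between KO 2 and KO 1, and its fitted log2 fold change was 1.19 (SE 0.66).

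There were 0.710, 1.60, 2.99 and 9.17 reads on Cd83 for each read on Cd40 in WT 1, WT 2, KO 1 and KO 2. The exact 95% intervals, from 0.628 to 0.802, 1.46 to 1.76, 2.65 to 3.37 and 8.34 to 10.1, do not overlap, also within a group, so that this ratio varied between replicates beyond counting error. Cd83 and Cd40 together held 96.3%, 97.1%, 70.6% and 87.4% of the summed CPM of the 9 genes. Cd83 (ENSMUSG00000015396.4) lies on chromosome 13 from 43784775 to 43803132 and Cd40 (ENSMUSG00000017652.16) on chromosome 2 from 165055627 to 165072948, both on the plus strand. The other 7 genes summed to 12.6 and 13.9 CPM in the WT-labeled libraries and to 116 and 120 in the KO-labeled pair.

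The genes that act with CD40 did not follow a single direction. Of 13 genes of CD40 and NF-kappaB signaling, all of them tested, 0 were past the threshold (2 at an unadjusted p under 0.05 in edgeR, against 13.7% of all genes, and 1 past the threshold in DESeq2 and in the likelihood ratio test of edgeR, which was Rel), and their median log2 fold change was 0.09, beside 0.05 over all genes tested. Relb, the NF-kappaB subunit most tied to dendritic cell maturation, had a log2 fold change of -0.79 (edgeR adjusted p = 0.434). Nfkb2, its partner, had 0.01 and Traf1, an adaptor of CD40, had 0.40 (edgeR adjusted p = 0.993 and 0.720). Cd40lg, the ligand on activated T cells, had 0, 3, 2 and 7 counts. Nfkb2 shares 11.6% of its exonic bases with a gene on the other strand.

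Beside Cd83 and Cd40, mature dendritic cells carry costimulatory and inhibitory ligands. Cd86 and Cd80, the ligands of CD28, had log2 fold changes of 1.12 and 1.42 (edgeR adjusted p = 0.299 and 0.422). Neither overlapped between the groups, as for 25.3% of all genes tested with the KO-labeled libraries higher. Cd274 and Pdcd1lg2, which encode the PD-1 ligands, had -0.18 and 0.51 (edgeR adjusted p = 0.906 and 0.689). Pdcd1lg2 did not overlap between the groups either, while Cd274 did. Cd274 shares 14.1% of its exonic bases with a gene on the other strand.

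Il12b (ENSMUSG00000004296.14, chromosome 11 from 44400063 to 44414033, plus strand) encodes the p40 chain shared by IL-12 and IL-23. Its counts, in the same order of libraries, were 0, 6, 36 and 34, or 0, 1.49, 6.85 and 5.93 CPM, so that the KO-labeled libraries were close to each other and above both labeled WT. The ratio of means was 8.60 and the fitted log2 fold change 2.99 with an SE of 1.14. The partner chains were rarer than Il12b in the KO-labeled libraries. Il12a, the p35 chain of IL-12, had 0 counts in all 4 libraries. Il23a, the p19 chain of IL-23, had 1 and 1 counts in the WT-labeled libraries and 8 and 10 in the KO-labeled pair. Per kilobase this was 0.677 and 0.777 CPM in KO 1 and KO 2, against 3.48 and 3.02 for Il12b. A count of 0 allows up to 0.902 CPM in WT 1 and 0.524 CPM in KO 2. On the receiving side, Stat4 and Il12rb2, the transcription factor and a receptor chain for IL-12 in T and NK cells, had log2 fold changes of 3.52 and 2.96 (edgeR adjusted p = 0.152 and 0.267). Il12rb1, the other chain, had -0.48 (edgeR adjusted p = 0.790). Of the 9 partner genes in this list 3 were tested and 0 were past the threshold in edgeR, 2 at an unadjusted p under 0.05 (13.7% over all genes), with 1, Stat4, past it in DESeq2 and in the likelihood ratio test. Il12rb2 shares 40.0% of its exonic bases with Serbp1 on the other strand, and Stat4 shares 26.7% with Gm28177 on the same strand.

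Lad1 had the largest ratio of means of the 9. Its product, ladinin-1, is an anchoring-filament protein of epithelial basement membranes, and the gene is also used as a marker of mature dendritic cells. There were 65 counts on it in KO 1, 203 in KO 2 and 0 in either library labeled WT, or, in KO 1 and KO 2, 12.4 and 35.4 CPM, a 2.86-fold difference between replicates. Set against 3 counts in each library labeled WT, the mean was in the KO-labeled libraries at least 29.1-fold higher. Of 8 epithelial markers 5, Krt5, Krt14, Krt18, Dsp and Trp63, had 0 counts in all 4 libraries, and the 8 summed to 2.40 and 0.495 CPM in the WT-labeled libraries and 3.23 and 2.44 in the KO-labeled pair. Cdh1, which encodes E-cadherin, made up most of this, with 1.5, 0.495, 3.23 and 2.27 CPM, no overlap between the groups and a log2 fold change of 1.47. The part of epithelial cells in the Lad1 counts was not tested. The Langerhans cell marker Cd207 had 0 counts throughout. Epcam, which encodes an epithelial cell adhesion molecule and is not among the 8 epithelial markers, had 0, 0, 10 and 9. Like Lad1 it had counts only in the KO-labeled libraries. Lad1 lies on chromosome 1 from 135818598 to 135833342 on the plus strand (ENSMUSG00000041782.14).

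Cacnb3 and Socs2 were the scarcest per kilobase in the KO-labeled libraries. Cacnb3, a calcium channel beta subunit used as a marker of mature dendritic cells, had 3, 0, 24 and 17 counts, or 0.902, 0, 4.57 and 2.97 CPM, with no overlap. With 3 counts in all in the WT-labeled libraries, the pooled ratio was 9.16 with an exact 95% interval from 2.92 to 46.2, and the fitted log2 fold change was 3.07 (SE 1.27). Of the other beta subunits, Cacnb2 had 0 counts in all libraries and Cacnb4, which shares 16.0% of its exonic bases with A430018G15Rik on the other strand, had 0, 0, 5 and 1. Cacnb1 had 21, 10, 5 and 24 counts, more than Cacnb3 in WT 1, WT 2 and KO 2, and a log2 fold change of -0.75 (edgeR adjusted p = 0.766). Cacnb3 (ENSMUSG00000003352.14) lies on chromosome 15 from 98630840 to 98644529 on the plus strand, and Socs2 (ENSMUSG00000020027.18) on the minus strand of chromosome 10 from 95385362 to 95417180.

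Socs2, which encodes a feedback inhibitor of cytokine signaling through STAT5, had 9, 2, 68 and 14 counts, or 2.71, 0.495, 12.9 and 2.44 CPM. KO 1 was 5.30-fold above KO 2, which lay between the WT-labeled libraries, while WT 2 was at 0.183 times the level of WT 1, and the fitted log2 fold change was 2.28 (SE 1.1). KO 1 also had the highest sum over 6 fibroblast or endothelial markers, 1160 CPM against 187 in KO 2 and 20.3 to 24.9 in the WT-labeled libraries. Most of the sum in KO 1 was collagen RNA, and 3 of the 4 markers tested, Col3a1, Col1a1 and Col1a2, were past the threshold. The endothelial markers were not highest in KO 1: in the same order of libraries Pecam1 had 15.3, 15.6, 13.3 and 21.6 CPM and Cdh5 0.301, 1.49, 0.19 and 0.175. The part of fibroblast or endothelial cells in the Socs2 counts was not tested. Among the 7 other genes of the SOCS family 0 were past the threshold in edgeR (1 at an unadjusted p under 0.05, against 13.7% of all genes, and 1, Cish, past it in DESeq2 and in the likelihood ratio test). Their median log2 fold change was -0.19. Cish, another target of STAT5, had a log2 fold change of 1.86, Socs1 had -1.07 and Socs3 had 0.09 (edgeR adjusted p = 0.156, 0.371 and 0.965).

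On the scale of CPM per kilobase of exon, Cd83 and Cd40 led in the WT-labeled libraries with 82.0 ± 41.1 and 54.4 ± 2.74 (SD, n = 2), and their ranges overlapped. Ccl17 followed with 6.83 ± 0.562 and Ccl22 with 2.53 ± 0.646, each apart from its neighbors. Il12b, Fscn1, Socs2, Cacnb3 and Lad1 were all under 1, and of these neighbors only Fscn1 and Socs2 did not overlap. In the KO-labeled libraries the order was Cd83 at 187 ± 150, Ccl17 at 43.0 ± 3.63, Cd40 at 22.3 ± 2.64, Ccl22 at 18.5 ± 0.307, Lad1 at 7.03 ± 4.80, Fscn1 at 3.68 ± 0.866, Il12b at 3.25 ± 0.329, Cacnb3 at 0.939 ± 0.282 and Socs2 at 0.807 ± 0.779. The ranges of Lad1 and Fscn1, of Fscn1 and Il12b, and of Cacnb3 and Socs2 overlapped. Ccl17 thus stood below Cd40 in both WT-labeled libraries and above it in both labeled KO.

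The wider program of mature dendritic cells held values in both directions. Of 35 further genes of the program 32 were tested, of which 1, Ccr7, rose and 0 fell, with 8 at an unadjusted p under 0.05 (13.7% over all genes). DESeq2 called 3, namely Ccr7, Serpinb6b and Samsn1. The median log2 fold change was -0.02, beside 0.05 over all genes tested and 2.87 over the 9 genes. Serpinb6b, a protease inhibitor, came nearest to the threshold with 7, 12, 296 and 105 counts and a log2 fold change of 3.85 (edgeR adjusted p = 0.0544). At the other end Cxcl16, the ligand of CXCR6, had -1.52, Ebi3, a chain of IL-27, -1.29 and Marcks, an actin-linked substrate of protein kinase C, -1.11 (edgeR adjusted p = 0.244, 0.299 and 0.354). Serpinb6b, Samsn1, Cxcl16, Ebi3 and Marcks were chosen after their values were seen. Cxcl16 shares 18.3% of its exonic bases with Zmynd15 and Ebi3 shares 23.4% with Gm16712, both on the other strand.

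**Figure D3:**
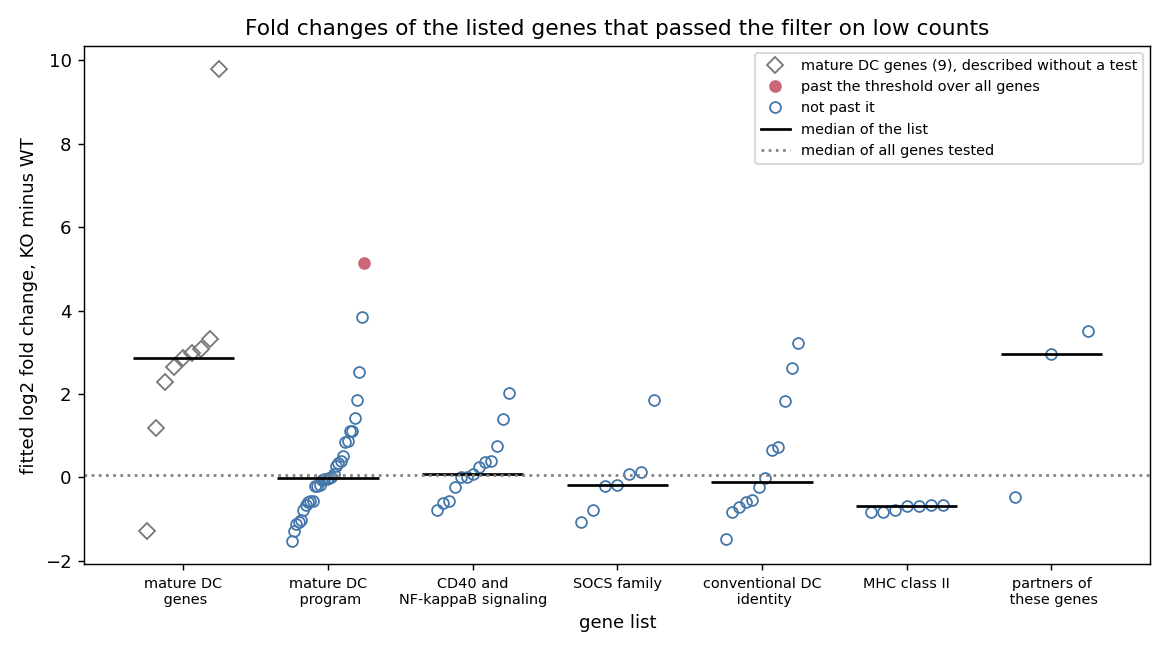
Fitted log2 fold change of KO against WT (vertical axis) of every gene that passed the filter on low counts in 7 lists (horizontal axis). Gray diamonds are the 9 genes, which are described without a test, filled red points are genes past the threshold over all genes, open blue points are genes that were not, black lines are list medians and the dotted line is the median of all genes tested. The median of the 9 genes was 2.87, and those of the mature DC program, conventional DC identity and MHC class II lists were -0.02, -0.12 and -0.69.

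Markers of conventional dendritic cells, the lineage that gives rise to the mature state, were partly scarce. The growth factor receptor Flt3 had 0, 1, 31 and 0 counts, the type 1 markers Xcr1 and Clec9a had 0, 14, 13 and 20 and 1, 8, 17 and 11, and Zbtb46, the transcription factor that separates this lineage from macrophages, had 1, 4, 21 and 51. Of the 15 genes of conventional DC identity 12 were tested and 0 were past the threshold in edgeR, with 4 at an unadjusted p under 0.05 (13.7% over all genes), 1 (Cd209a) past it in DESeq2 and 2 (Cd209a and Zbtb46) in the likelihood ratio test. Zbtb46 had a log2 fold change of 3.23, Cd209a, a lectin of type 2 and monocyte-derived dendritic cells, 2.63, and Batf3, needed for type 1 cells, -1.48 (edgeR adjusted p = 0.223, 0.190 and 0.258). The list summed to 1079 and 1190 CPM in the WT-labeled libraries and 890 and 1084 in the KO-labeled pair. All 7 MHC class II genes were tested and had negative log2 fold changes, from -0.83 to -0.65, and 0 were past the threshold in edgeR, DESeq2 or the likelihood ratio test or at an unadjusted p under 0.05.

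The genes were also scaled to these lists. For each 1000 counts on the conventional DC identity list there were 4.46, 5.83, 47.9 and 40.3 counts on Ccl22 and 3.06, 3.12, 26.3 and 19.2 on Ccl17 in WT 1, WT 2, KO 1 and KO 2. Fscn1 had 0.836, 1.04, 14.5 and 8.53 on this scale, and Cd40 had 178, 150, 78.2 and 76.0. Cd83, with 126, 240, 234 and 697, and Socs2, with 2.51, 0.416, 14.5 and 2.25, overlapped between the groups. Of this list's sum, Irf8 held 578 and 421 CPM in the WT-labeled libraries and 209 and 473 in the KO-labeled pair. Mgl2 held 99.2 and 224 against 249 and 261. Zbtb46, which separates this lineage from macrophages, held only 0.301 and 0.991 against 4 and 8.9. Scaled to the list, Zbtb46 itself had 0.279, 0.833, 4.49 and 8.21, with no overlap. Whether Ccl22 or Ccl17 rose relative to the number of dendritic cells was not tested. For each 1000 counts on the MHC class II list, Cd40 had 5.43, 3.41, 2.36 and 3.42, so that its groups overlapped. Cd83, with 3.85, 5.46, 7.06 and 31.3, and Socs2, with 0.0766, 0.00947, 0.439 and 0.101, did not overlap on that scale. Relative to the MHC class II list the log2 fold change was -0.61 for Cd40, 3.59 for Ccl22 and 3.33 for Ccl17.

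Markers of other cells that make some of these transcripts were also counted. The 5 B cell markers, of cells that carry Cd40 and Cd83, summed to 19.2 and 45.1 CPM in the WT-labeled libraries and 4 and 14 in the KO-labeled pair, with Pax5 at 0 counts throughout. The 13 macrophage or monocyte markers, none of them past the threshold in edgeR (4 at an unadjusted p under 0.05, against 13.7% of all genes, 1 past it in DESeq2 and 0 in the likelihood ratio test), summed to 36379 and 42575 CPM against 20307 and 27329. Of the 13, 10 had negative and 3 positive log2 fold changes, the latter being Ccr2 (1.24), Mrc1 (0.19) and Lyz2 (0.01). The 8 melanoma markers, of which 1 (Tyrp1) was past the threshold in edgeR, 5 in DESeq2 and 6 in the likelihood ratio test, summed to 1330 and 566 CPM against 2226 and 1738. Gpnmb, which macrophages also make, held 1068 and 297 against 251 and 561 CPM of these sums and was the 1 marker of the 8 with a negative log2 fold change (-0.75), where the list's median was 2.42. The 10 T cell markers summed to 81.2 and 112 CPM against 2077 and 1158. Single genes made up most of the remaining sums. Of the 5 plasmacytoid DC markers (450 and 239 CPM against 154 and 176) Bst2, which many cells express, held 448 and 235 against 151 and 174, and Siglech had 0, 2, 2 and 0 counts. Of the 5 neutrophil markers (155 and 116 against 47.2 and 92.0 CPM) Csf3r held 151 and 114 against 46 and 88.5, and Ly6g had 2, 0, 1 and 8 counts. Of the 4 NK cell markers (0.902 and 2.48 against 9.32 and 6.46 CPM) Eomes, which T cells share, held 0.902 and 1.49 against 8.37 and 6.46. The part of any of these cells in the 9 genes was not tested.

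The nearest patterns over the 4 libraries were sought among 6241 other genes with a mean of at least 20 normalized CPM, as the root mean square difference of centered log2 CPM. Ccl17 was nearest to the pigment cell genes Pmel (0.0805) and Slc45a2 (0.140), Fscn1 to Gm16008 (0.0712) and the pigment enzyme gene Tyrp1 (0.135), and Ccl22 to the T and NK cell adhesion gene Cd2 (0.153) and Gm16008 (0.167). Cd83 was nearest to Nfkbiz (0.131) and Vars (0.149), and Cd40 to Ubxn11 (0.0408) and Ocel1 (0.0515). The nearest genes of the other 4 were Arc (0.154) and Tnfrsf9 (0.331) for Cacnb3, Gm6377 (0.274) and Rrm2 (0.283) for Il12b, Car6 (0.213) and Dnajc2 (0.450) for Socs2, and Lck (0.485) and Ccr7 (0.590) for Lad1. With 4 libraries in 2 groups, many genes share a pattern, and likeness is given as a measure only.

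With each library left out in turn, the log2 fold changes of Ccl22, Ccl17, Fscn1 and Cd40 moved least, from 2.58 to 3.11, from 2.50 to 2.69, from 3.06 to 3.53 and from -1.45 to -1.17. That of Lad1 ranged from 8.68 to 10.27, where the values of Lad1 depend on the prior count because of the 0 counts and fell to 5.80 with a prior count of 2. Cd83 went from 1.19 to -0.06 without KO 2, and Socs2 from 2.28 to 0.63 without KO 1, to 1.42 without WT 2 and to 3.81 without WT 1. Cacnb3 went to 7.22 without WT 1 and 1.97 without WT 2, and Il12b to 2.03 without WT 1 and 7.92 without WT 2, where 7.22 and 7.92 again depend on the prior count.

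**Figure D4:**
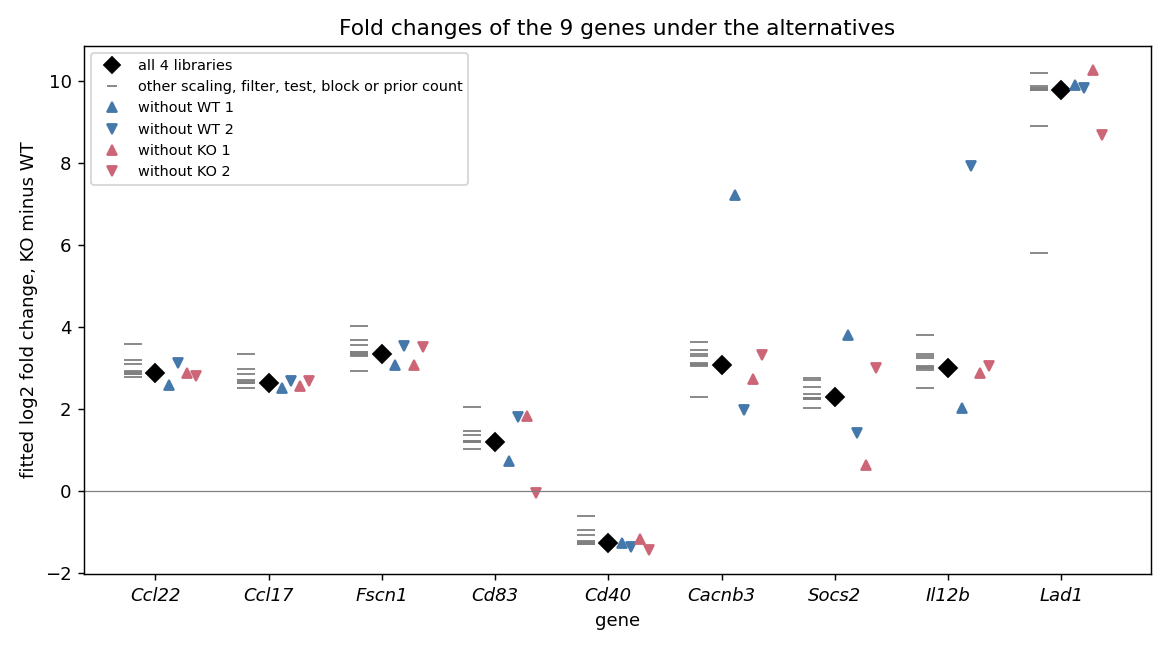
Fitted log2 fold change of KO against WT (vertical axis) of each of the 9 genes (horizontal axis) with all 4 libraries (black diamonds), with 1 library left out (triangles, blue for a library labeled WT and red for one labeled KO) and under other scaling, filters, tests, block or prior count (gray bars). Ccl22, Ccl17 and Fscn1 stayed between 2.50 and 4.03, Cd40 stayed below 0, and Cd83 reached -0.06 without KO 2.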

How the data were processed

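Each library had 1 table of raw counts by gene symbol, as deposited by the authors and not normalized. Per the submitters' processing notes, reads were aligned to mm10 with HISAT2 2.1.0 and counted with HTSeq 0.11.0. The annotation, the strand setting and any trimming are not given in the sources used here. Libraries were grouped by title, 2 WT and 2 KO. Nothing states that they came from separate animals, so p-values measure only the spread between these libraries.

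Summary lines of HTSeq, which name no gene and held 71.2% to 79.5% of reads, were left out. The fit used edgeR 4.0.16 under R 4.3.3: filterByExpr (minimum count 10, total 15), TMM factors, the quasi-likelihood F test with group as the only term, two-sided, Benjamini-Hochberg adjustment over 11837 genes and a threshold of 0.05. Normalized CPM used TMM-scaled totals of the genes kept. The prior count was 0.125, and an SE is the log2 fold change divided by the square root of F. A group at 0 was set to 3 counts per library for a bound. Intervals are exact binomial at the 95% level. Gene models and merged exon lengths came from GENCODE M21 (GRCm38), where 53365 symbols (96.4%) matched. No exon of the 9 genes overlapped another gene's exons, and for other genes overlaps of at least 10% of exonic bases are given.

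The 9 genes and all lists were chosen with earlier results of these data known. Named in the text were the 9 genes, 25 partner or reference genes whatever their values, up to 3 more genes past the threshold per tested list, and the 2 nearest patterns of each of the 9 genes. Any other gene was chosen after its values were seen. Alternatives were other scaling, filters, DESeq2 1.42.0, the likelihood ratio test, a replicate block, a larger prior count, scaling to dendritic cell lists, and each library left out. A crossed block was added after seeing the data. The fit was tested on simulated data. Plots used matplotlib 3.10.9.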

Additional observations from a re-analysis of the deposited data

How the results depend on the processing

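Over all genes tested, 68 genes were past the threshold, and 134 with library totals alone, 583 with every gene with a count, 117 with at least 50 counts in at least 2 libraries, 374 in DESeq2 and 556 in the likelihood ratio test. Without each library in turn the number ranged from 113 to 1248, with 113 without WT 1, 228 without WT 2, 123 without KO 1 and 1248 without KO 2. A fit without a library assumes that the lone library of its group varies like the others. Same-numbered libraries deviated from their group means with a correlation of -0.179 across genes and share only a number. With the replicate block 215 genes were past the threshold, and with the crossed replicate block, chosen after seeing the data, 647.

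Of the mature DC program, 1 gene was past the threshold, and 2 with library totals, 4 with every gene, 2 with the stricter filter, 3 in DESeq2, 2 in the likelihood ratio test, 2 with the replicate block and 1 to 7 without a library, 3 without WT 2 and 7 without KO 2, of which 3 were higher and 4 lower. Ccr7 was past it in all 13 alternatives, the crossed block included, with an adjusted p from 1.94e-20 to 0.0210. The partner, CD40 and NF-kappaB and SOCS lists went from 0 to 1 gene each with every gene, in DESeq2 and in the likelihood ratio test, and to 0 to 2 (1 without WT 2, 2 without KO 2), 0 to 1 (1 without KO 1 or KO 2) and 0 without a library. The conventional DC identity list went from 0 to 1, 1 and 2 under the same alternatives and to 0 to 2 (2 without KO 2) without a library. The MHC class II list stayed at 0 throughout.

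Of the 9 genes, only Cd83 changed sign under any alternative, to -0.06 without KO 2 (up to 1.83 without another library). The cause was not tested. With library totals alone the median of all genes moved from 0.05 to 0.39 on the log2 scale, and Cd40 stood at -0.95. Depth limits Cacnb3, Socs2, Il12b, Fscn1 and Lad1 most, with fewer than 10 counts in each WT-labeled library. Cacnb3, Socs2 and Il12b gave no value under the stricter filter.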
